A study of Mus musculus with 2 samples.

Results

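Lymphatic endothelial cells, which line the vessels that drain fluid, proteins and immune cells from tissue, were examined in single-cell RNA libraries of mouse nasal tissue. A cell was taken as a member if it held at least 1 UMI of at least 3 of the 6 genes Mmrn1, Flt4, Prox1, Lyve1, Reln and Ccl21a together with a UMI of Cldn5 or Pecam1, genes of endothelial cells in general. A UMI is a molecular tag that marks 1 captured RNA molecule, and cells were barcodes with at least 1000 UMIs, at least 300 genes and at most 15% mitochondrial UMIs. By this rule 408 of 23816 cells were members, so they were chosen by the measured UMIs of these 8 genes. They were 217 of 14136 cells of mouse 1, a share of 1.54% (95% Clopper-Pearson interval 1.34% to 1.75%), and 191 of 9680 cells of mouse 2, a share of 1.97% (1.71% to 2.27%), and the intervals cover counting error only.

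The study surveyed the olfactory epithelium of vertebrates, and the libraries described here came from 2 male wildtype C57BL/6J mice with no genetic change and no treatment, 1 library per animal. The labels used here give no age. Both mice form 1 group, so the design holds no comparison between conditions. The tissue is labelled olfactory epithelium. Omp, a gene of mature olfactory neurons, was found in 17 and 16 cells (0.120% and 0.165%), Cnga2, a channel subunit of the same neurons, in 14 and 18 (0.0990% and 0.186%), and Cyp2g1, a gene of their supporting cells, in 6 and 6 (0.0424% and 0.0620%). Epcam, a general epithelial gene, was found in 2.70% and 2.57% of cells, and 4063 and 3407 cells passed a fibroblast rule. Levels are given as CPM, the UMIs of a gene per 1000000 UMIs summed over the cells of a class in 1 mouse, always with mouse 1 before mouse 2. The members held 1193973 and 1047325 UMIs in all, with a median of 4079 and 4542 UMIs and 1934 and 1965 genes per cell, so that 3 UMIs in a mouse equal 2.51 and 2.86 CPM. The libraries shared 483 cell barcodes, of which 1 was a member in both.

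Lymphatic endothelium arises mostly from veins when the transcription factor Prox1 is switched on, with help from Sox18 and Nr2f2, and it grows in response to VEGF-C through the receptor tyrosine kinase Flt4. Initial capillaries carry the hyaluronan receptor Lyve1 and take up fluid through loose, button-like junctions. Collecting vessels downstream have less Lyve1, valves shaped with the transcription factor Foxc2 and the integrin Itga9, and a muscular coat. Ccl21, secreted by capillaries, draws dendritic cells and T cells that carry the receptor CCR7 into the vessel.

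Ccl21a and its copies are shown as sequences because their likeness bears on how each can be counted. In the GENCODE transcripts of the GRCm38 build, the coding sequences of the annotated genes Ccl21b, Gm10591 and Gm13304 each differ from that of Ccl21a at 2 of 402 bases. Counted from 1 at the first coding base, the substitutions from Ccl21a to each copy are T84A and C194T. Bases 61 to 240 of the coding sequences of Ccl21a and Ccl21b follow, 5′ to 3′, with the 2 differing bases in capitals.
Ccl21a: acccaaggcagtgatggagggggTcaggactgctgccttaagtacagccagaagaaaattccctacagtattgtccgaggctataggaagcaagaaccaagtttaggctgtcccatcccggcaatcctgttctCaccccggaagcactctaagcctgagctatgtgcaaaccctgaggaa
Ccl21b: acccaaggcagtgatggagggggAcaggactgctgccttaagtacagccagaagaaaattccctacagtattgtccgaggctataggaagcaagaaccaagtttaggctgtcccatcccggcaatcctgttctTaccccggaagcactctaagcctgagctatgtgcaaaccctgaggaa
Of the 343 stretches of 60 bases in the coding sequence of each copy, 223 occur unchanged in Ccl21a. Members held 5052 and 4466 CPM of Ccl21a, 972 and 1013 of Ccl21b, 929 and 618 of Ccl21d, 1276 and 819 of Gm13304 and 1233 and 610 of Gm10591. Blood vessel endothelial cells held at most 4.98 CPM of any of the 5. The sources used here do not say how reads were divided among these near-identical genes, so their separate levels are uncertain. The same holds for 4930578G10Rik, annotated on the opposite strand over Ccl21a, at 5072 and 4727 CPM.

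The genes of the rule chose the cells, so their levels are a description and were not tested. Mmrn1 (ENSMUSG00000054641), a secreted glycoprotein of lymphatic endothelium and platelets, was at 1312 and 1587 CPM. Flt4 (ENSMUSG00000020357), the receptor for VEGF-C, was at 506 and 690 CPM. Prox1 (ENSMUSG00000010175), the transcription factor that keeps lymphatic identity, was at 407 and 388 CPM. Each of these 3 was at 61.7 CPM or less in the blood vessel endothelium of either mouse. Lyve1 (ENSMUSG00000030787) was at 1379 and 1843 CPM in members, at 9.95 and 0 CPM in blood vessel endothelium and at 25.1 and 176 CPM in macrophages, some of which also carry this receptor. Reln (ENSMUSG00000042453), a large secreted glycoprotein best known from cortical layering, was at 801 and 1004 CPM, and Ccl21a (ENSMUSG00000094686) ranged from 0 through a median of 13 to 225 UMIs per member in mouse 1 and to 209 in mouse 2, where the median was also 13.

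**Figure D1:**
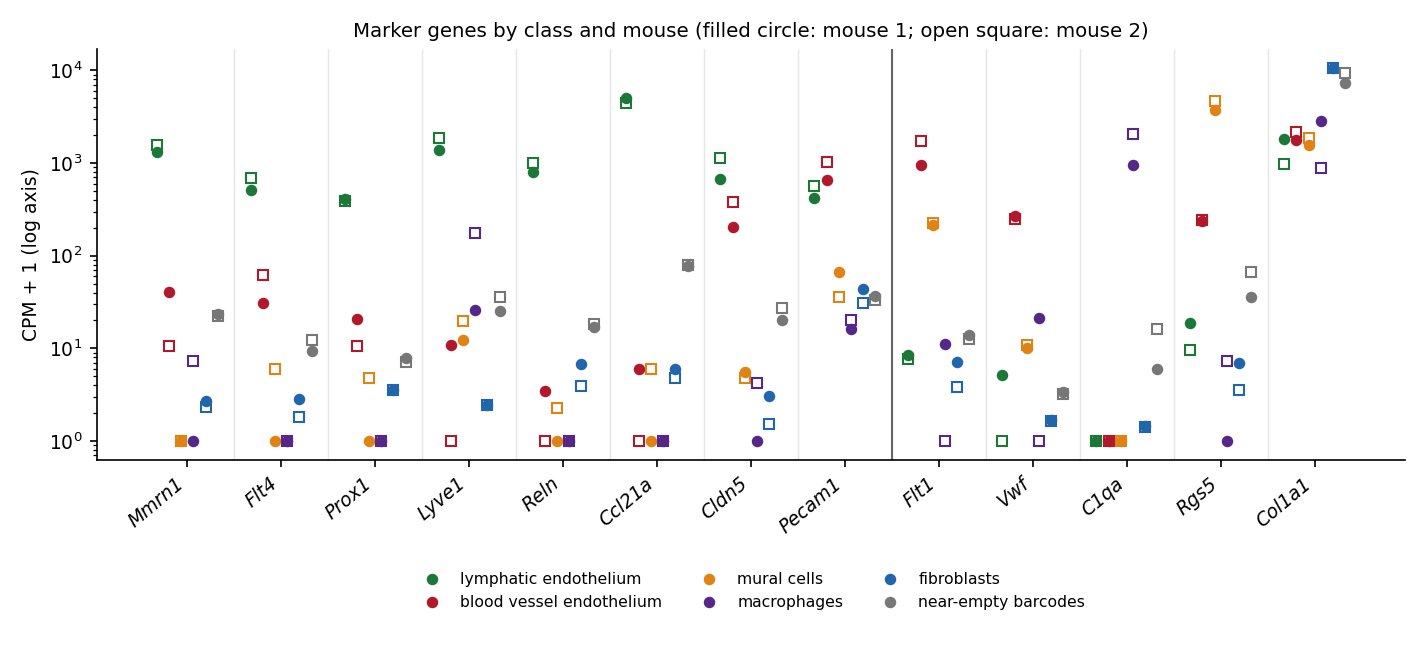
Level of the 6 lymphatic genes of the rule, the 2 general endothelial genes and 5 genes of other cells (after the vertical line) in 5 classes of cells and in near-empty barcodes, as CPM plus 1 on a log axis, with 1 filled circle for mouse 1 and 1 open square for mouse 2. Lymphatic endothelium was at 1312 and 1587 CPM of Mmrn1 and 7.54 and 6.68 CPM of Flt1, while blood vessel endothelium was at 955 and 1751 CPM of Flt1.

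A UMI of Mmrn1 was found in 90.3% and 95.8% of members, of Flt4 in 79.7% and 87.4%, of Prox1 in 64.1% and 71.7%, of Lyve1 in 72.8% and 74.3%, of Reln in 82.9% and 89.5% and of Ccl21a in 88.9% and 85.3%. Fibroblasts, which should lack these genes and had median depths of 4511 and 5642 UMIs, held a UMI of Mmrn1 in 0.788% and 0.851% of cells and of Ccl21a in 2.19% and 2.44%. With every member thinned to 1000 UMIs the shares were 61.3% and 68.6% for Mmrn1, 29.5% and 31.9% for Prox1 and 49.3% and 61.3% for Lyve1. All 6 genes were found in 74 and 83 members before thinning and in 9 and 17 after it.

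At the edge of the rule, 37 and 18 members had exactly 3 of the 6 genes, with median depths of 3256 and 2350.5 UMIs. Just outside it, 41 and 19 cells had 2 of the 6 with Cldn5 or Pecam1, with median depths of 4212 and 7153 UMIs. Mmrn1 was at 379 and 517 CPM in the cells just inside and at 197 and 233 CPM in those just outside. It is a gene of the rule, so this difference is fixed in part by the rule. Nr2f2 was at 323 and 228 CPM just inside against 126 and 35.8 CPM just outside. Pdpn, another gene used to mark lymphatic vessels, was at 119 and 365 CPM against 177 and 59.6 CPM, so it was lower inside in mouse 1. Emcn, a gene that defines the blood vessel class here, differed little, at 238 and 304 CPM against 205 and 292 CPM. Flt1, a VEGF receptor of blood vessel endothelium, was at 28.3 and 0 CPM just inside and at 62.9 and 95.4 CPM just outside. A further 44 and 12 cells had 3 or more of the 6 genes without Cldn5 or Pecam1 and were not members.

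The label was checked against genes of the other cell types that a droplet could hold. Flt1 was at 7.54 and 6.68 CPM in members and 955 and 1751 CPM in blood vessel endothelium, and Vwf, a clotting factor carrier of blood vessel endothelium, at 4.19 and 0 CPM against 269 and 247 CPM. C1qa, a complement gene of macrophages, was at 0 in the members of both mice, where 3 UMIs equal 2.51 and 2.86 CPM. It was at 953 and 2050 CPM in macrophages. The 6 genes of the macrophage list summed to 22.6 and 10.5 CPM in members and 3886 and 7884 CPM in macrophages. At least 1 of these 6 was found in 18 and 10 members, and at least 3 in 0 and 0. Rgs5, a pericyte gene, was at 17.6 and 8.59 CPM against 3765 and 4644 CPM in mural cells (pericytes and smooth muscle), and 20 of its 21 UMIs in mouse 1 lay in 1 member. Emcn, Ptprb, Plvap and Aqp1, which also define the blood vessel class here, were not at 0 in members: Emcn was at 224 and 354 CPM against 403 and 702 CPM. Of the 6 genes that define the blood vessel class, Flt1 was found in 5 and 5 members and Vwf in 3 and 0. Emcn was found in 116 and 120, Ptprb in 78 and 71, Aqp1 in 73 and 53 and Plvap in 26 and 24.

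Fibroblast RNA was present. Col1a1, a collagen chain of fibroblasts, was at 1815 and 970 CPM in members, 10660 and 10563 CPM in fibroblasts and 7284 and 9471 CPM in near-empty barcodes, those with 50 or fewer UMIs, whose RNA is mostly free. The summed level of the 6 genes of the fibroblast list was 6232 and 3232 CPM in members, 6686 and 5050 CPM in blood vessel endothelium and 37316 and 35225 CPM in fibroblasts. Per member it ranged from 0 through a median of 1095 to 80416 CPM in mouse 1, and from 0 through 859 to 54775 CPM in mouse 2. Another class's rule was also met by 45 and 34 members, of which 30 and 26 met that of blood vessel endothelium, mainly through Emcn (28 and 24) and Ptprb (26 and 24), and 21 and 9 that of fibroblasts. Leukocyte markers numbered 3 or more in 0 and 4 members. Cartilage RNA was widespread: at least 1 of 8 cartilage and bone genes was found in 157 and 135 members (72.4% and 70.7%), and at least 3 in 48 and 18. That list summed to 1492 and 802 CPM in members and 7056 and 6951 CPM in near-empty barcodes. Below, cells with cartilage RNA are those with a UMI of Acan, Col9a1, Chad or Comp, and only 98 and 89 members had none. No doublet caller was run, and some results without these groups of members are given below.

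The members were next compared with blood vessel endothelial cells of the same mice, the other endothelial class, to show which genes beyond the rule differ between the linings of the lymph and blood vessels. Blood vessel endothelial cells had 3 of Flt1, Emcn, Plvap, Vwf, Aqp1 and Ptprb with Cldn5 or Pecam1 and were not members, and numbered 86 and 59, with median depths of 3140 and 2544 UMIs. Counts were summed per mouse and class, the sums of lymphatic and blood vessel endothelium, macrophages, mural cells and fibroblasts entered 1 fit with the mouse as a block, and all rule genes were left out. By edgeR's quasi-likelihood test with Benjamini-Hochberg adjustment, 728 of 10790 genes (6.75%) passed an adjusted p of 0.05, 297 (2.75%) higher and 431 (3.99%) lower in lymphatic endothelium. These shares over all tested genes are the ones to set beside the counts of each list below. The direction of 720 of the 728 was the same in both mice, and the median log2 fold change of all tested genes was 0.03. Without the mouse as a block the count was 461, and with 2 rather than 3 blood vessel markers required it was 1268 of 11518 tested genes.

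Genes of lymphatic identity outside the rule stood mostly on the lymphatic side. Of the 19 on the list 18 were tested, 12 were higher, 0 were lower, and their median log2 fold change was 2.43, where 2.75% of all tested genes were higher. The list was written with earlier results of these libraries known, so its direction is no independent evidence. Its remaining gene, the scavenger receptor Stab2, was at 2.51 and 0 CPM in members and did not pass the filter on low counts.

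Nts, which encodes the peptide neurotensin, was at 632 and 657 CPM in lymphatic and at 9.95 and 0 CPM in blood vessel endothelium. From the summed counts the ratio was 98.6 (95% counting interval 38.4 to 362; adjusted p = 8.52e-05, edgeR's quasi-likelihood test with Benjamini-Hochberg adjustment). It was not carried evenly: 98 and 70 members (45.2% and 36.6%) had a UMI, against 0.443% and 0.558% of fibroblasts. Fgl2, a fibrinogen-like protein, was at 675 and 677 against 89.6 and 23.7 CPM (log2 fold change 3.75 ± 0.42 SE, adjusted p = 1.44e-04). Pdpn, the membrane glycoprotein podoplanin often used to mark lymphatic vessels, was at 373 and 315 against 64.7 and 9.49 CPM (3.26 ± 0.59, adjusted p = 0.00604), and fibroblasts also held it at 169 and 124 CPM. Stab1, a scavenger receptor, was at 247 and 249 against 44.8 and 28.5 CPM (2.74 ± 0.45, adjusted p = 0.00246), and Pard6g, a subunit of the Par cell polarity complex, at 392 and 597 against 39.8 and 0 CPM (4.39 ± 0.59, adjusted p = 7.17e-04). For each of these genes both lymphatic values lay above both blood vessel values.

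The list's other higher genes were Nr2f2, Tbx1, Maf, Thy1, Cd9, Klhl4 and Gng11, with log2 fold changes from 1.14 (Cd9) to 3.51 (Maf). Sox18, which acts upstream of Prox1, had 145 and 209 CPM against 67.2 and 152 CPM and did not pass (0.86 ± 0.32, adjusted p = 0.151). The tyrosine kinase Tie1 (0.49 ± 0.40, adjusted p = 0.599) and Nrp2, the coreceptor for VEGF-C (−0.28 ± 0.32, adjusted p = 0.721), did not pass either, nor did Lmo2, Hhex and Tspan18, and the values of Tie1 and Nrp2 in the classes overlapped: Nrp2 was at 230 and 275 CPM in lymphatic and 231 and 437 CPM in blood vessel endothelium. With 2 blood vessel markers required, Sox18 and Tie1 passed on the lymphatic side and Nrp2 changed sign.

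Among transcription factors of the endothelium, 27 of 29 were tested, 5 were higher and 2 lower. Nr2f2, a factor of venous and lymphatic fate, was at 338 and 527 against 87.1 and 71.2 CPM (2.50 ± 0.34, adjusted p = 4.33e-04). Maf was at 524 and 765 against 64.7 and 47.5 CPM (3.51 ± 0.60, adjusted p = 0.00449), and Tbx1, needed for lymphatic growth, at 93.0 and 156 against 17.4 and 23.7 CPM (2.70 ± 0.57, adjusted p = 0.0119). Meis2 and Lyl1 were the other higher ones. Mecom was at 0.838 and 0.955 CPM, from 2 UMIs in all, against 177 and 551 CPM in blood vessel endothelium, which was 342-fold higher there by summed counts (95% counting interval 93.4 to 2845; adjusted p = 6.28e-05). Sox17, a factor of arterial endothelium, had no UMI in any member and was at 79.6 and 104 CPM in blood vessel endothelium (adjusted p = 0.00100), at least 65.9-fold lower in members when 3 UMIs over both mice are taken as the floor. For Mecom and Sox17 both lymphatic values lay below both blood vessel values.

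**Figure D2:**
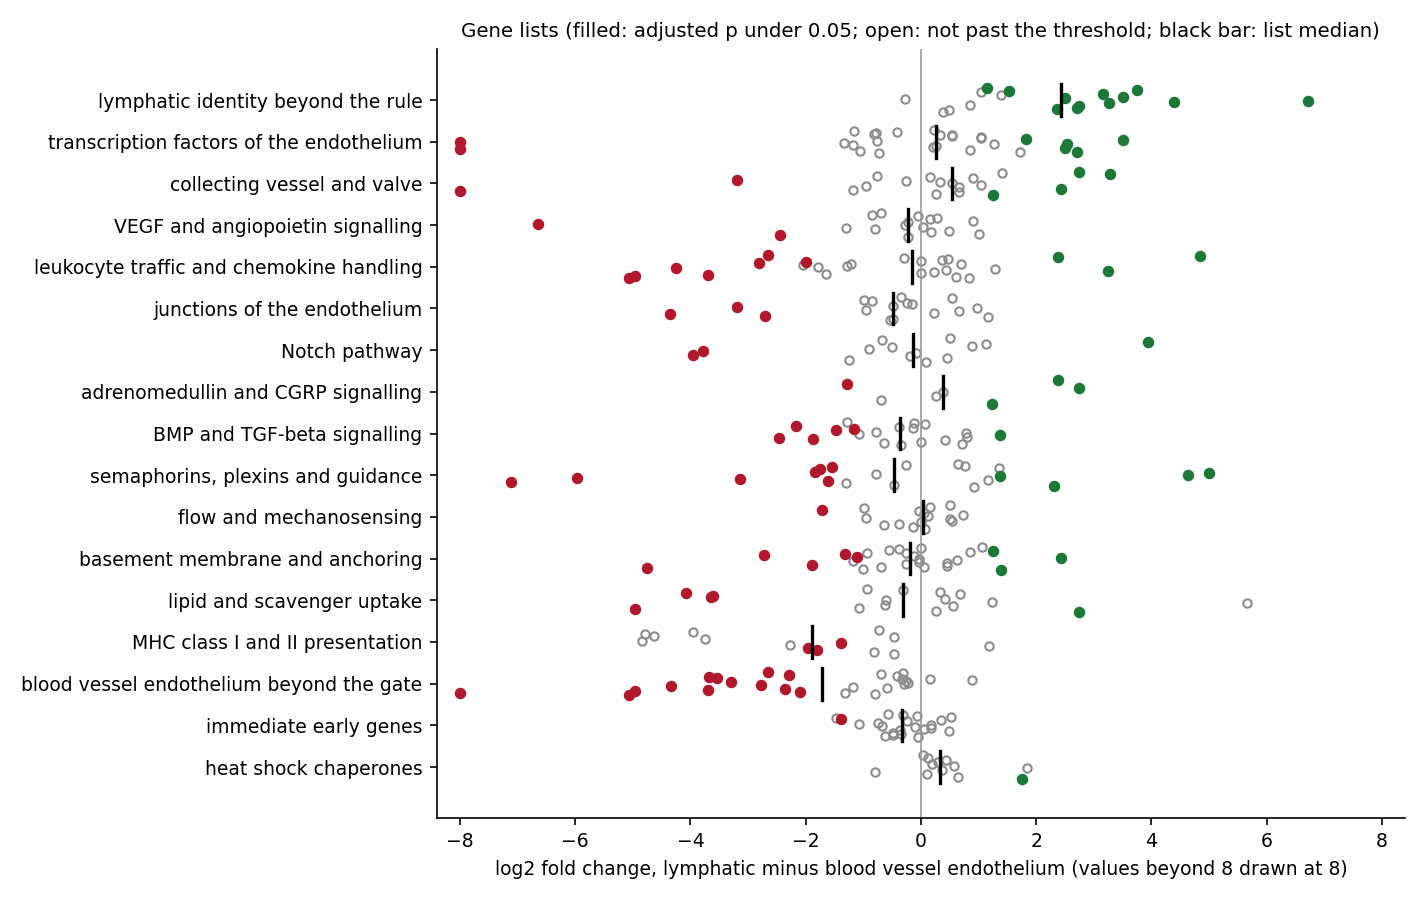
Log2 fold change, lymphatic minus blood vessel endothelium, of each tested gene on 17 lists, with 1 point per gene, filled where the adjusted p was under 0.05 and open otherwise, and a black bar at the list's median. The list of lymphatic identity had a median of 2.43 and that of blood vessel endothelium beyond its rule a median of −1.71, against 0.03 over all tested genes. Both lists were written with earlier results of these libraries known.

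VEGF and angiopoietin signalling showed 0 higher and 2 lower of 17 tested genes out of 20, where 2.75% and 3.99% of all tested genes were. Nrp1, the coreceptor for VEGF-A, was at 5.86 and 0.955 CPM in members and 187 and 645 CPM in blood vessel endothelium, 96.5-fold higher in the latter by summed counts (95% counting interval 48.1 to 226; adjusted p = 1.22e-04). Vegfc, the growth factor of lymphatic vessels, was itself lower in the members, at 11.7 and 5.73 against 34.8 and 75.9 CPM (−2.45 ± 0.55, adjusted p = 0.0147), and fibroblasts held 29 and 23 CPM of it. Kdr, the main VEGF-A receptor, was at 233 and 277 CPM in members, within the 194 and 479 CPM of blood vessel endothelium (−0.23 ± 0.34, adjusted p = 0.803); its sign turned in mouse 1 alone, where the log2 fold change was 0.26.

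Genes that handle chemokines and leukocytes passed in both directions: of 35 on the list 26 were tested, 3 were higher and 7 lower. Ackr2, a receptor that scavenges inflammatory CC chemokines, was at 82.1 and 101 CPM in members and 4.98 and 0 CPM in blood vessel endothelium, a ratio of 27.9 by summed counts (95% counting interval 7.62 to 232; adjusted p = 7.23e-04). Ackr3, which scavenges Cxcl12, was at 506 and 609 against 144 and 80.7 CPM (2.38 ± 0.32, adjusted p = 4.35e-04), while Cxcl12 itself was at 71.2 and 15.3 against 396 and 1329 CPM (−4.25 ± 0.82, adjusted p = 0.0156). Both lymphatic values of Ackr3 lay above, and both of Cxcl12 below, those of blood vessel endothelium. Il7, a survival factor of lymphocytes, was at 73.7 and 85.9 against 9.95 and 9.49 CPM (3.25 ± 0.64, adjusted p = 0.00625).

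The lower genes of that list included Vcam1, Selp and Sele, adhesion molecules that capture leukocytes from blood. Vcam1 was at 1.68 and 2.86 against 94.6 and 66.4 CPM (−5.07 ± 0.60, adjusted p = 2.20e-04), Selp, P-selectin, at 18.4 and 8.59 against 1055 and 71.2 CPM (−4.97 ± 0.68, adjusted p = 0.00225) and Sele, E-selectin, at 0.838 and 18.1 against 192 and 57.0 CPM (−3.70 ± 0.87, adjusted p = 0.0290). All lymphatic values of these 3 lay below all blood vessel values. Icam1, another adhesion molecule of the list, was at 714 and 256 against 485 and 242 CPM and did not pass (0.44 ± 0.33, adjusted p = 0.548), nor did Alcam (adjusted p = 0.816) or Cd99l2 (adjusted p = 0.655). Ackr1, Cd200 and Cd274 were the remaining lower ones. Ackr4, a scavenger of Ccl21, was at 4.19 and 5.73 CPM in members, and Ccr7, the receptor for Ccl21, at 0.838 and 0 CPM.

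**Figure D3:**
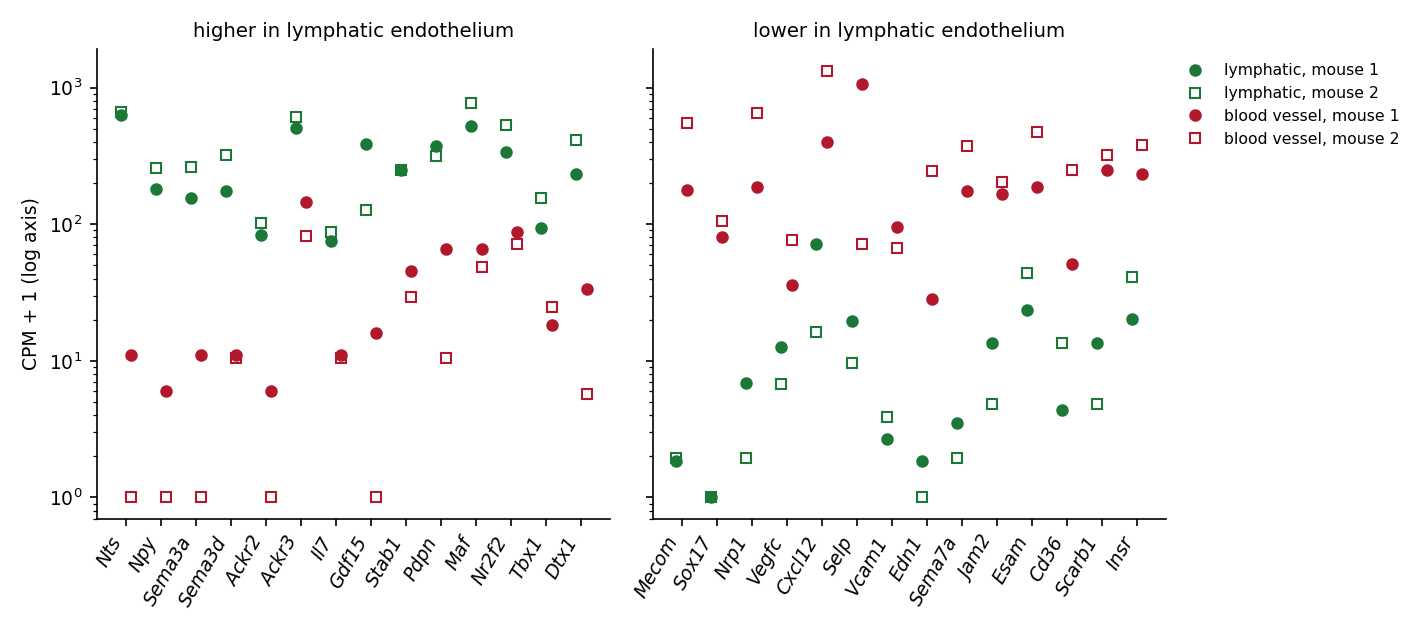
Levels of 14 genes higher and 14 lower in lymphatic than in blood vessel endothelium, as CPM plus 1 on a log axis, with filled circles for mouse 1 and open squares for mouse 2. For each gene both lymphatic values lie on 1 side of both blood vessel values, from Nts at 632 and 657 against 9.95 and 0 CPM to Sox17 at 0 and 0 against 79.6 and 104 CPM.

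Guidance molecules split. Of 22 on the list 21 were tested, 4 were higher and 7 lower. Sema3a, a secreted semaphorin that takes part in lymphatic valve formation, was at 155 and 261 against 9.95 and 0 CPM (5.01 ± 0.57, adjusted p = 2.26e-04), and Sema3d at 175 and 319 against 9.95 and 9.49 CPM (4.63 ± 0.43, adjusted p = 6.28e-05). Sema3f and the netrin receptor Unc5b were also higher. On the other side, the membrane-anchored Sema7a was at 2.51 and 0.955 against 174 and 370 CPM (−7.12 ± 0.76, adjusted p = 2.02e-04), and Sema3g, Sema4a, Sema6d, the plexins Plxna2 and Plxnd1, and Robo4 were lower with it. The semaphorins that were higher and those that were lower in members thus both included secreted ones of class 3: Sema3g had 1 UMI in all members, against 18 in the fewer blood vessel cells.

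Of the 22 genes of collecting vessels and valves 19 were tested, 4 were higher and 2 lower. Itga9, the integrin of valve leaflets, was at 126 and 252 against 27.4 and 47.5 CPM (2.43 ± 0.37, adjusted p = 0.00100). Cldn11, a claudin of valves, was at 35.2 and 56.3 against 7.46 and 0 CPM, a ratio of 9.20 by summed counts (95% counting interval 3.06 to 45.4; adjusted p = 0.0485). Adm, the peptide adrenomedullin, was at 26.8 and 32.5 against 4.98 and 4.75 CPM, a ratio of 6.01 (1.97 to 29.9; adjusted p = 0.0435), and fibroblasts held 20.8 and 12.8 CPM of it. Pgm5 was higher as well. Foxc2 was at 22.6 and 42.0 CPM in members and 17.4 and 33.2 CPM in blood vessel endothelium, ranges that overlap (0.53 ± 0.59, adjusted p = 0.713), and Mecom and the junction protein Esam were lower.

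Of adrenomedullin and CGRP signalling, which is needed for lymphatic vessels to form, 7 of 11 genes were tested, 3 were higher and 1 was lower. Ramp2, the subunit that makes the receptor Calcrl respond to adrenomedullin, was at 515 and 1189 against 246 and 513 CPM (1.24 ± 0.32, adjusted p = 0.0321). Adm and the decoy receptor Ackr3, both given above, were the other 2, and the adenylate cyclase Adcy4 was lower. Calcrl was at 192 and 310 against 197 and 204 CPM and did not pass (0.39 ± 0.33, adjusted p = 0.603). In the Notch pathway, 14 of 17 genes were tested and Dtx1, a ubiquitin ligase of the pathway, was the 1 higher gene, at 230 and 413 against 32.3 and 4.75 CPM (3.95 ± 0.58, adjusted p = 0.00169), with the ligand Jag2 and the glycosyltransferase Mfng lower. Over all tested genes 2.75% were higher and 3.99% lower.

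Junction, matrix and growth factor genes followed. Of 17 tested junction genes out of 20, 0 were higher and 3 lower, Jam2 at 12.6 and 3.82 against 164 and 204 CPM (−4.36 ± 0.45, adjusted p = 9.06e-05), Jam3 and Esam, while Cdh5, VE-cadherin, was at 185 and 254 against 341 and 503 CPM and did not pass (−0.84 ± 0.35, adjusted p = 0.199). Of the 26 basement membrane and anchoring genes, all tested, 3 were higher and 5 lower: Timp3, Ecscr and Itga9 on the lymphatic side, and Sparcl1, Itga1, Itga6, Hspg2 and Mmrn2 on the other. Sparcl1, a matricellular protein, was at 36.9 and 15.3 against 550 and 883 CPM (−4.75 ± 0.52, adjusted p = 2.15e-04), with both lymphatic values below. BMP and TGF-beta signalling had 1 higher and 5 lower of 20 tested genes out of 21: Ltbp4, which binds latent TGF-beta, was higher at 1066 and 1369 against 435 and 570 CPM (1.36 ± 0.25, adjusted p = 0.00448), and the coreceptor Eng lower at 171 and 197 against 478 and 607 CPM (−1.47 ± 0.25, adjusted p = 0.00270), with Bmpr2, Bmp6, Smad6 and Smad7.

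Uptake and antigen genes were lower where they passed, with Stab1 the exception. Of 17 tested genes of lipid and scavenger uptake out of 21, 1 was higher and 4 lower. Scarb1, the receptor for high-density lipoprotein, was at 12.6 and 3.82 against 246 and 318 CPM (−4.96 ± 0.48, adjusted p = 6.56e-05), and the fatty acid carrier Fabp4 at 14.2 and 77.3 against 299 and 755 CPM (−3.61 ± 0.53, adjusted p = 0.00171), with Cd36 and Fabp5. MHC genes had 0 higher and 3 lower of 14 tested out of 16: H2-K1, a class I heavy chain, at 226 and 136 against 525 and 456 CPM (−1.39 ± 0.28, adjusted p = 0.00812), Tap1 and Nlrc5. The class II gene H2-Aa was at 20.9 and 4.77 against 627 and 147 CPM and did not pass (adjusted p = 0.0915). The leukocyte list summed to 49.4 and 3137 CPM in members and 953 and 19.0 CPM in blood vessel endothelium, and the part of leukocyte RNA in these differences was not tested.

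Genes of blood vessel endothelium beyond its rule gave the largest set of lower genes, 13 of 26 tested out of 30, with 0 higher. This list too was written with earlier results of these libraries known, so its direction is no independent evidence. Insr, the insulin receptor, was at 19.3 and 40.1 against 231 and 380 CPM (−3.29 ± 0.31, adjusted p = 6.28e-05), and Ly6c1 at 87.1 and 45.8 against 873 and 2074 CPM (−4.34 ± 0.59, adjusted p = 9.45e-04). Cd34, a sialomucin of blood capillaries, was at 36.0 and 28.6 against 157 and 185 CPM (−2.30 ± 0.29, adjusted p = 2.59e-04). In each of these the classes did not overlap. Ly6a, Col15a1, Clec14a, Rgcc, involved in the cell cycle and complement, and the glucose transporter Slc2a1 were also lower. Flow and mechanosensing had 1 lower gene of 16 tested out of 17, Heg1. Of 22 immediate early genes 1, Egr3, was lower, and Hsph1 was the 1 higher gene of 12 heat shock chaperones. Over all tested genes 3.99% were lower and 2.75% higher. Single genes of lists this short are therefore no result about the list. Of the 12 proliferation genes 4 were tested and none passed. On the lists of other cells, 0 of 7 cartilage, 0 of 2 leukocyte and 0 of 3 Schwann cell genes tested passed, and no gene of fibroblasts, mural cells, macrophages or epithelium could be tested. The 4 haemoglobin genes all passed as lower, at 89.6 and 12.4 CPM summed in members against 990 and 28.5 CPM in blood vessel endothelium, so most of the difference lay in mouse 1. Without cells with cartilage RNA, Hba-a1 and Hbb-bs changed sign.

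The 15 genes furthest to the lymphatic side among those with 50 CPM in either class had different known roles. Npy, neuropeptide Y, was at 180 and 257 CPM against 4.98 and 0 CPM, a ratio of 66.1 by summed counts (95% counting interval 18.2 to 548; adjusted p = 1.25e-04), but 25 and 19 members held it (11.5% and 9.95%, against 2.78% and 2.11% of fibroblasts), and 1 cell held 40.9% and 43.9% of its UMIs. Gdf15, a stress-induced hormone of the TGF-beta family, was at 385 and 127 against 14.9 and 0 CPM (5.03 ± 0.59, adjusted p = 2.15e-04). Gucy1b1, a subunit of the guanylate cyclase that responds to nitric oxide, was at 98.8 and 123 against 4.98 and 0 CPM, and Prkcz, the atypical protein kinase C of the Par complex, at 105 and 171 against 2.49 and 9.49 CPM. For all 4 the lymphatic values lay above the blood vessel values in both mice. Efcc1 was at 72.0 and 82.1 CPM, and had no UMI in blood vessel endothelium, so it was at least 15.7-fold higher over both mice (adjusted p = 4.40e-04); Apba2 and Tnfaip8l3 likewise had none there and were at least 15.6-fold and 10.7-fold higher. Nts, Sema3a, Sema3d, Ackr2, Sh3gl3, Scn3a, a sodium channel subunit, Tc2n and Gm45213 completed the 15.

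On the other side, Slc14a1, a urea transporter, Csf2rb2, a cytokine receptor subunit, Zfp366 and Sox17 had no UMI in any member and were at least 63.4, 78, 46.3 and 65.9-fold lower. Edn1, the vasoconstrictor endothelin, had 1 UMI in all members, 0.838 and 0 CPM, against 27.4 and 242 CPM, 227-fold higher in blood vessel endothelium with a counting interval of 39.2 to 9102. Csf2rb was at 1.68 and 0.955 against 261 and 147 CPM. Mecom, Sema7a, Nrp1, Dach1, Rundc3b, Exoc3l2, Gm26714 and the interferon-induced GTPases Gvin1 and Gvin2 completed the 15 lower genes. Gvin1 and Gvin2, and Csf2rb and Csf2rb2, are close copies of each other, so their separate counts are uncertain. Of these 30 genes 20 overlap another annotated gene, as do 58.2% of all genes that passed and 56.1% of all tested, and the sources used here do not say whether counting used strand.

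Of the 108 named genes that passed, 16 lost their call under 3 or more of 13 other ways of selecting cells or testing: Cldn11, Lyl1, Tap1, Adcy4, Adm, Bmp6, Pgm5, Cd274, Ecscr, Egr3, Itga6, Plxna2, Hsph1, Robo4, Sema3f and Timp3. Selecting cells by marker genes can also carry along genes that are detected with those markers, which was not tested. Epithelial and erythrocyte genes summed to 935 and 990 CPM in the blood vessel cells of mouse 1, against 1.7 and 89.6 CPM in its lymphatic cells. Pericyte and smooth muscle genes summed to 495 and 332 CPM in the blood vessel cells of the 2 mice, against 42.7 and 43.9 CPM in members. The part of such RNA in the genes called lower in members was not tested.

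Members differed among themselves in Lyve1, which in the vessel tree is a gene of capillaries. A UMI of Lyve1 was found in 158 and 142 members and none in 59 and 49, with median depths of 4158.5 and 4543 UMIs against 3641 and 4487. This split, and the genes named in it, were chosen after values were seen, and it shares the rule's genes: a member without Lyve1 needed 3 of the other 5 markers. It is therefore a description of 1 library per mouse, with no test. With 10 CPM added, 55 of the 4915 genes with 50 CPM in a group (1.12%) were over 2-fold higher with Lyve1 in both mice and 31 (0.631%) without it, or 44 and 30 once the rule genes, the Ccl21 copies and genes that overlap them are left out.

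Ackr2 was among the genes that went with Lyve1. It was at 104 and 130 CPM with Lyve1 and 13.7 and 18.4 CPM without, a UMI being found in 29.1% and 31.7% against 6.78% and 8.16% of members, and in 3.20% and 4.58% of fibroblasts. Ackr3 was at 560 and 728 against 339 and 272 CPM. Npy was at 236 and 347 against 6.84 and 0 CPM, with the few cells described above. Piezo2, a mechanically gated ion channel, was at 276 and 413 against 92.4 and 77.2 CPM, and the basement membrane collagen chains Col4a1, at 231 and 441 against 85.5 and 195 CPM, and Col4a2, at 236 and 346 against 78.7 and 129 CPM, went the same way. Of the 25 basement membrane and anchoring genes with 20 CPM in a group, 10 were higher with Lyve1 in both mice and 9 without it, with median log2 differences of 0.03 and −0.05. Enpp3, Ablim3, Ccn3, Cd2, Apba2 and Adgrg3 also went with Lyve1 and are in the plot of Lyve1 groups, which leaves out Ackr3, under 2-fold in mouse 1. For each gene named here the level with Lyve1 was above the level without it in both mice. The rule genes Mmrn1, at 1545 and 1855 against 595 and 823 CPM, and Ccl21a, at 6238 and 5501 against 1393 and 1518 CPM, are fixed in part by the rule and are read no further.

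Genes that went against Lyve1 included those of collecting vessels and valves. Foxc2 was at 13.3 and 27.1 CPM with Lyve1 and 51.3 and 84.5 CPM without, Cldn11 at 27.7 and 23.2 against 58.2 and 151 CPM, and Gja4, the gap junction protein connexin of valves and arteries, at 15.5 and 45.2 against 78.7 and 95.5 CPM. Each was higher without Lyve1 in both mice. The transcription factor Foxp2 was at 55.4 and 36.1 against 185 and 158 CPM. Clca3a1, a gene of lymphatic and some blood vessel endothelium, was at 163 and 134 against 380 and 474 CPM, and Adm, Bmp4, Gata2, Foxc1, Efnb2 and Slco2a1 went the same way. Fabp4, a gene of blood capillaries given above as lower in the members, was at 3.33 and 9.03 CPM with Lyve1 and 47.9 and 272 CPM without. The fibroblast gene Col1a1 was at 1486 and 755 CPM with Lyve1 and 2830 and 1584 CPM without, and its part in the split was not tested, while 13.9% and 13.4% of members with Lyve1 and 13.6% and 14.3% of those without met the blood vessel rule.

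**Figure D4:**
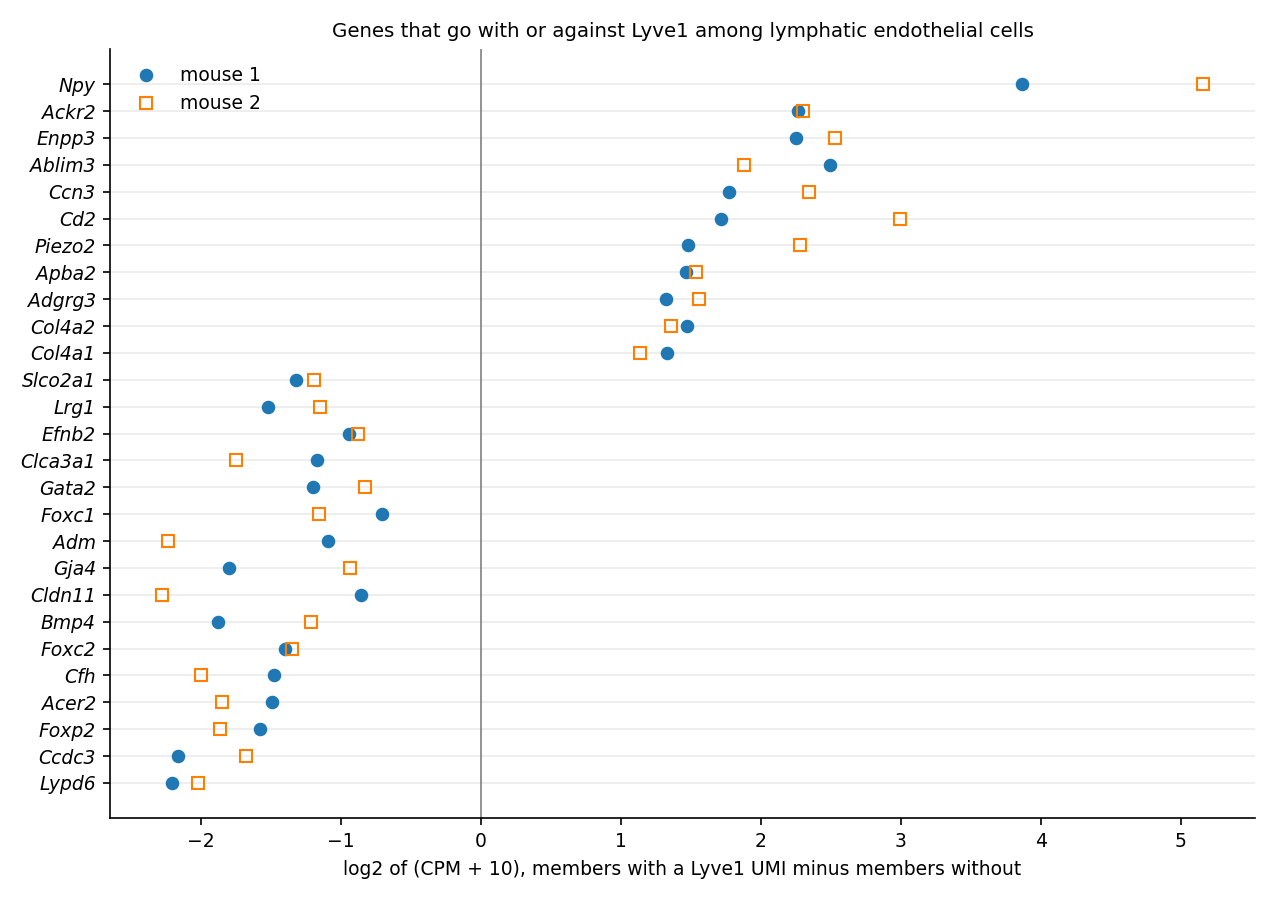
Difference in log2 of CPM plus 10 between members with and without a UMI of Lyve1 for 27 genes, with filled circles for mouse 1 and open squares for mouse 2. Ackr2 and 10 other genes lie on the side of Lyve1 in both mice and Foxc2, Cldn11 and 14 other genes on the other side.

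Over the whole valve list, 18 of 22 genes had 20 CPM in a group; 3 were higher with Lyve1 in both mice and 10 without it, where of all 9300 genes with that level 27.9% and 26% were. The median log2 difference of the list was −0.44 and −0.85, and over all 9300 genes −0.03 and 0.06. Of 19 such genes of leukocyte traffic and chemokine handling, copies of Ccl21 left out, 6 were higher with Lyve1 in both mice and 2 without, with medians of 0.36 and −0.19, above that of all genes in mouse 1 and below it in mouse 2. The blood vessel genes beyond the rule leaned the same way as the valve list: of 22, 3 were higher with and 9 without Lyve1, with medians of −0.27 and −0.38. So did 12 genes of VEGF and angiopoietin signalling, 3 with and 7 without, and 19 of BMP and TGF-beta signalling, 6 with and 11 without. Both pericyte and smooth muscle genes at that level were higher without Lyve1, with medians of −1.99 and −1.10, and their part in the split was not tested. These medians rest on 2 genes with few UMIs: the whole list of 6 held 51 and 46 UMIs in members. Among 25 transcription factors 4 were higher with and 12 without, and among 22 immediate early genes 3 with and 12 without. Some of these lists share genes, so their counts are not independent. Efnb2 and Ephb4 are on both the valve and the VEGF list, and Efnb2 is also on the blood vessel list. Foxc1, Foxc2, Gata2, Nfatc1 and Mecom are on both the valve and the transcription factor list. The median of the immediate early genes was −0.02 in mouse 1, close to the −0.03 of all genes, and −0.74 in mouse 2. At least 2 of Foxc2, Cldn11 and Gja4 were found in 9 and 14 members, of which 7 and 7 lacked Lyve1. Those 9 and 14 members had median depths of 8936 and 6046.5 UMIs, and members with none of the 3 had 3650 and 3919 UMIs. With at least 4 of the 6 markers required of members, 4 of 18 valve genes were higher with Lyve1 in both mice and 7 without it.

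The members of the 2 mice, with 1 library each and so no replicate check, differed over 2-fold in 351 of 4149 genes with 50 CPM in a mouse (8.46%), 294 of them higher in mouse 1 (7.09%) and 57 in mouse 2. Without cells with cartilage RNA, 263 were higher in mouse 1 and 134 in mouse 2. Leaving out members that met another class's rule gave 432 of 4188 genes (10.3%) over 2-fold. Immediate early genes, which are switched on within minutes of a stimulus, summed to 13742 CPM in mouse 1 and 5168 CPM in mouse 2, a ratio of 2.66. Per member the sum ranged from 0 through a median of 6838 to 45825 CPM in mouse 1, and from 0 through 1783 to 40211 CPM in mouse 2. On this list 21 of 22 genes were higher in mouse 1, where 50.2% of all genes were, and 16 were over 2-fold higher. The AP-1 subunits Fos, at 2481 and 814 CPM, and Jun, at 1071 and 344 CPM, and the transcription factor Egr1, at 1044 and 270 CPM, were among them, and Klf6, at 235 and 269 CPM, was the 1 gene not higher. The ratio of the list was 1.58 in blood vessel endothelium, 1.87 in mural cells, 0.899 in macrophages, 1.15 in fibroblasts and 1.10 in near-empty barcodes.

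Heat shock chaperones summed to 3963 and 2409 CPM, a ratio of 1.65 in members against 1.10 in blood vessel endothelium and 0.988 in fibroblasts, and 4 of 12 were over 2-fold higher in mouse 1: Hspa1a at 149 and 47.7 CPM, Hspa1b, a near-identical copy whose separate count is uncertain, at 153 and 53.5 CPM, Dnajb1 and Hsp90aa1. Some of the largest differences lay in few cells. Cxcl2, a neutrophil chemokine, was at 329 and 20.1 CPM in 38 and 14 members, with 133 of its 393 UMIs in mouse 1 in 1 cell, and Ccl4 at 106 and 0 CPM with 111 of 127 UMIs in 1 cell. Tnfaip6, a hyaluronan-binding protein of inflamed tissue, was more widely spread, at 271 and 40.1 CPM in 66 and 23 members. Il1b, Abtb2, Ifi203, C3 and Pcdh9 were also among the 10 genes with the largest ratio towards mouse 1. Fshr and H2bc24, also among the 10, differed the same way in fibroblasts, Fshr being at 86.2 and 0.29 CPM there.

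In mouse 2 the highest ratios belonged to neutrophil genes: S100a8 was at 10.1 and 1493 CPM and S100a9 at 21.8 and 1626 CPM. The 4 members with 3 or more leukocyte markers held 1554 of the 1564 UMIs of S100a8 and 1689 of the 1703 of S100a9, and without them S100a8 was at 10.1 and 9.88 CPM and S100a9 at 21.8 and 13.8 CPM. Camp, Ngp, Ltf and Wfdc21, all neutrophil granule or neutrophil-associated genes, lay mostly in the same cells. Of the other genes higher in mouse 2, Oip5 had 46 of 56 UMIs in 1 cell, Gm2117 was also at 0.04 and 60.2 CPM in fibroblasts, and Lama5, a laminin chain, was at 17.6 and 67.8 CPM and Fabp4 at 14.2 and 77.3 CPM.

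**Figure D5:**
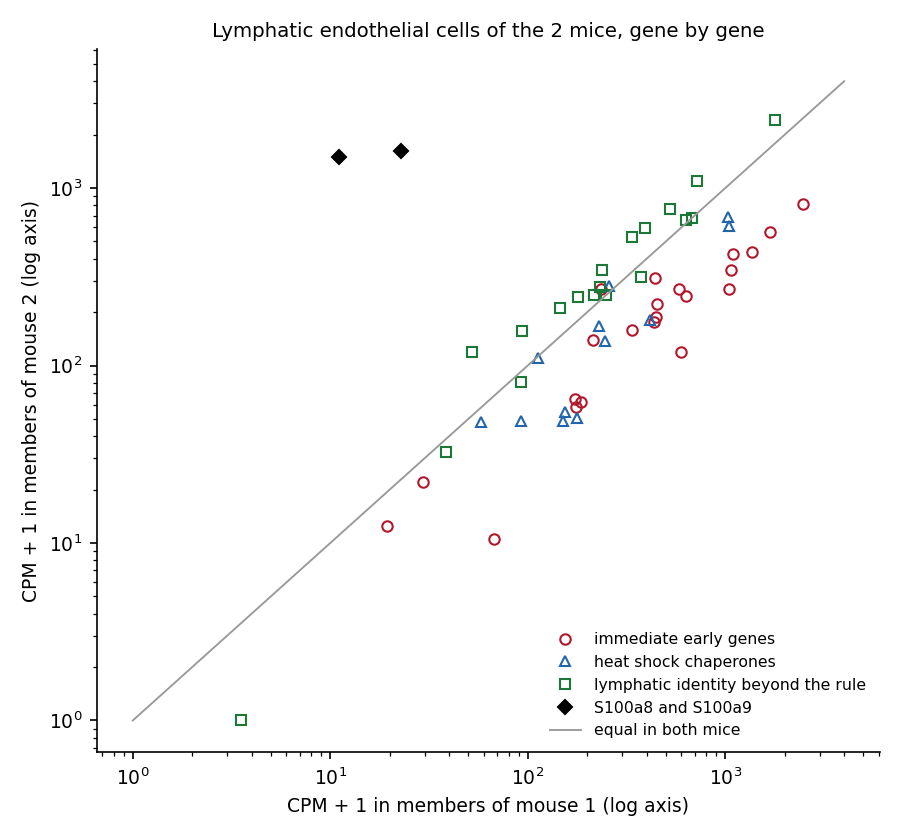
Level of genes of 3 lists and of S100a8 and S100a9 in the members of mouse 1 (x) and mouse 2 (y), as CPM plus 1 on log axes, with 1 point per gene and a line where both are equal. Of 22 immediate early genes 21 lie below the line, and S100a8 and S100a9 lie far above it at 1493 and 1626 CPM in mouse 2.

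The most abundant RNAs of the members outside mitochondrial and ribosomal protein genes, not corrected for length, were Rn18s-rs5, a ribosomal RNA gene, at 35478 and 69066 CPM, and Fth1, ferritin heavy chain, at 9513 and 7469 CPM. Malat1, 4930578G10Rik, Ccl21a, Zc3h7a, S100a6, Tmsb4x, Sparc, Vim, Tpt1, Actb, Crip1, Gm10925 and Plac9 followed. Of these, Sparc was at 3933 and 2480 CPM in members and 18175 and 22199 CPM in near-empty barcodes, and Plac9 at 2322 and 3019 CPM in members and 440 and 441 CPM in blood vessel endothelium.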

How the data were processed

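Single-cell RNA libraries of nasal tissue labelled olfactory epithelium from 2 male wildtype mice, 1 library each, were analysed as 1 group. Per the labels' protocols, tissue was digested with enzymes, sieved, treated to lyse red blood cells and loaded on a droplet device. The deposited tables hold raw counts per gene and barcode, not normalized, for 56953 genes. Per the submitters' processing notes, STAR, Cell Ranger 7.0.0 and the GRCm39 build were used, with no role stated; the sources used here do not state that the counts are UMIs or whether strand was used. A GENCODE annotation of GRCm38, in which 52029 identifiers were found, served for names, overlaps and the coding sequences, and no coordinates are printed.

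The libraries held 95844802 and 86049057 counts, and cells had medians of 3908.5 and 5199 UMIs. Cells were filtered at 1000 UMIs, 300 genes and 15% mitochondrial UMIs. No doublet caller was run. Classes were gated by marker genes, and cells that met more than 1 rule were kept only as members. Counts were summed per mouse and class (5 classes, 10 sums, 4 residual degrees of freedom) and tested in R 4.3.3 with edgeR 4.0.16 (robust quasi-likelihood F test after TMM and filterByExpr), blocked by mouse since each animal gave all classes, with Benjamini-Hochberg adjustment over all tested genes at 0.05. The SE is the fold change over the root of F. The 65 marker genes of the classes, Ccl21 copies and genes that overlap them were left out. With 2 mice and the mouse as a block, p-values rest on how far differences between classes disagreed between these animals. That spread was estimated over all 5 classes together, with information shared across genes, and not from lymphatic and blood vessel endothelium alone. Ratios of summed counts have exact 95% intervals, levels Poisson and shares Clopper-Pearson intervals, all for counting error only, from scipy 1.17.1 in Python 3.11.15; a fold against a class with no count takes 3 counts over both mice as its floor.

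Named genes are those of the rule, the 15 largest changes in each direction with an adjusted p under 0.05, 50 CPM in a class and 1 direction in both mice, the 15 most abundant genes of the members, the 10 largest ratios between mice in each direction, and members of 26 lists (379 of 380 symbols matched). The members and lists were chosen with earlier results of these data known. Alternatives were DESeq2 1.42.0, other filters, scaling and classes in the fit, no block, other marker numbers and cell filters, thinning, and leaving out cells with other cells' RNA; the last of these were chosen after values were seen.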

Additional observations from a re-analysis of the deposited data

How the results depend on the processing

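The count of genes that differ between lymphatic and blood vessel endothelium, 728 of 10790 tested, came to between 569 and 1069 under 11 of 13 alternatives. The 569 were of 6661 genes tested after thinning, and the 1069 of 24641 with no filter on low counts. The count fell to 461 of 10790 with no replicate block (194 higher, 267 lower). It rose to 1268 of 11518 with at least 2 of 6 markers in blood vessel endothelium. Of the 569, 1069, 461 and 1268 genes, 437, 713, 461 and 619 were among the 728. Leaving out a mouse leaves no test, so single-mouse values stand in. Of 1563 pairs of a named gene and an alternative, 1423 kept their side of the threshold, 123 lost it, 11 gained it and 6 changed sign; 64 of 108 passing genes passed wherever tested, and 34 named genes lost their call with no replicate block. The reversals were Hba-a1 at 0.61 and Hbb-bs at 0.20 without cells with a UMI of Acan, Col9a1, Chad or Comp and, of genes that did not pass, Nrp2 at 0.34 and Kdr at 0.49 with at least 2 blood vessel markers, Kdr at 0.15 without those same cells, and Foxc2 at −0.12 with at least 4 lymphatic markers. With mouse 2 or mouse 1 left out, Kdr ranged from −0.79 to 0.26 and Calcrl from −0.035 to 0.60. The cause was not tested.

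The mean share of members, 1.75%, was 1.42% counting only members that meet no other rule and 0.806% counting only members without cartilage RNA, both over all cells, and 1.54% to 1.97% with 1 mouse left out. The share of members with Lyve1, 73.6% (72.8% to 74.3% with 1 mouse left out), was 55.3% after thinning to 1000 UMIs. Genes over 2-fold higher with Lyve1 numbered 55, 36 of which were among the 90 found with at least 4 markers. Of the 31 higher without Lyve1, 20 were among the 41 found that way. Leaving out members that met another class's rule gave 76 genes higher with Lyve1 and 45 without it. Of these, 40 and 23 were among the 55 and 31. The ratio of immediate early genes between mice, 2.66, ranged from 2.64 to 3.33. At this depth, 3 UMIs are 7.46 and 14.2 CPM in blood vessel endothelium, and genes below that are not resolved.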
